A study of Mus musculus with 6 samples.

Results

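The 9 genes described here carry adrenergic and natriuretic input into adipocytes. They were chosen by symbol: the β-adrenergic receptors *Adrb1* and *Adrb3*, the α-adrenergic receptors *Adra1a* and *Adra2a*, the natriuretic peptide receptors *Npr1* and *Npr3*, the phosphodiesterase *Pde3b*, the protein kinase A (PKA) subunit *Prkar2b* and the potassium channel *Kcnk3*. Of these 9 genes, 7 had a row among the 37024 rows of the count table and 6 could be tested among 9872 rows. *Adra1a* and *Npr3* had no row analysed here. The RNA came from inguinal white adipose tissue (iWAT) of mice on a C57BL/6 background that were fed a Western diet for 12 weeks. All 6 libraries came from *Lexis* fl/fl animals. The 3 libraries labelled AdKO also carried *Adipoq*-cre, which is active in adipocytes, and the 3 labelled AdWT were Cre-negative littermate controls. *Lexis* is a long noncoding RNA, and in this model the other cells of the depot keep an intact allele. Age and sex were not given for these libraries in the sources used here.

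Norepinephrine from sympathetic nerves binds β-adrenergic receptors, which act through a stimulatory G protein and adenylyl cyclase to raise cAMP. cAMP releases the catalytic subunits of PKA, which switch on lipolysis and, in thermogenic fat, heat production. α2-adrenergic receptors act through an inhibitory G protein and oppose this, while α1-adrenergic receptors raise calcium. Natriuretic peptides reach a similar end through cGMP, made by the receptor that *Npr1* encodes, and the product of *Npr3* clears the peptides. *Pde3b* encodes the enzyme through which insulin lowers cAMP in fat. KCNK3, a tandem pore potassium channel, holds the membrane potential negative and is known to dampen adrenergic signalling in adipocytes.

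Library totals lay between 14470542 and 17882713 counts. The lncRNA gene *4930412L05Rik*, which lies at the *Lexis* locus, was counted 8, 9 and 8 times in AdWT and 21, 11 and 13 times in AdKO, so AdKO was not the lower group, and both groups are named here by their labels alone. Of 10 adipocyte marker genes 7 had a row, and their summed level lay between 41405 and 54690 CPM in every library of this fat depot. CPM is the count of a row scaled to a common library size with the TMM factors of edgeR. Tested with the quasi-likelihood method of edgeR, no row of 9872 reached an adjusted *P* under 0.05 (0%), while 566 rows (5.73%) had an unadjusted *P* under 0.05. DESeq2 in place of edgeR called 17 rows.

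In AdKO the level of 4 of the 6 tested members was higher and that of 2 lower, and their log2 fold changes had a median of 0.039. Over all rows 5105 were higher and 4767 (48.3%) lower, and the median was 0.0071. No member had an adjusted *P* under 0.05 in edgeR's test or in DESeq2. Only *Kcnk3* had an unadjusted *P* under 0.05 in both, and 2.98% of all rows were lower in AdKO with an unadjusted *P* under 0.05 in edgeR's test. The 6 members thus gave 1 gene that stood apart from the replicate spread before adjustment and none after it.

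*Kcnk3* (ENSMUSG00000049265.6) lies on the plus strand of chromosome 5 from 30890543 to 30927643 in NCBIM37 (mm9), with 1 annotated transcript of 2 exons. The 250 bases before its annotated start are shown because *Kcnk3* had the smallest *P* of the members, and those of *Pde3b* because they alone among the members held a cAMP response element core. Both were read from NCBIM37 in the direction of the gene, chr5:30890293-30890542 (+) for *Kcnk3* and chr7:121558545-121558794 (+) for *Pde3b*. Capitals mark the GC box letters GGGCGG and the core TGACG on either strand.
Kcnk3: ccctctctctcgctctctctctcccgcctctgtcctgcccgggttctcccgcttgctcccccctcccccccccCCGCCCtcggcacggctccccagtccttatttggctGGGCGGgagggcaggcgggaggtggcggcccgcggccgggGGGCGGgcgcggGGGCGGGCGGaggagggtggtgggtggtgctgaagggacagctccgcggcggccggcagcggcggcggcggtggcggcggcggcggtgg
Pde3b: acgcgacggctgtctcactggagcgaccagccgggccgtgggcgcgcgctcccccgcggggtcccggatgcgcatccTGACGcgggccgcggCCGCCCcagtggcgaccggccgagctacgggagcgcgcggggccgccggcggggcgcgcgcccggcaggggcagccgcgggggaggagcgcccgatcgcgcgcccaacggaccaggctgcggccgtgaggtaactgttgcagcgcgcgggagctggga
The *Kcnk3* window held 5 GC boxes, of which 2 overlap, and the *Pde3b* window held 1. At least 1 GC box was found in 39.6% of the 22366 windows of the same length before protein-coding genes. TGACG, which is also part of the full response element TGACGTCA, was found in 19.4% of all windows, and TGACGTCA in 1.91%, but in none of the members' windows. The TCF/LEF core CTTTGA was in 13.4% of all windows and in none of the members' windows. These matches describe letters only.

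*Adrb3*, the β-adrenergic receptor typical of rodent fat cells (ENSMUSG00000031489.7, minus strand of chromosome 8 from 28336248 to 28340060), had 3 rows in the table. The row with the highest total held 97.6% of the counts, the next had 5 to 23 counts per library, and the third was at 0. How reads shared by such rows were counted was not given in the sources used here, so its reads may be split between them. The highest row measured 39.5, 35.3 and 29.7 CPM in AdWT replicates 1, 2 and 3 and 57.7, 37.1 and 31.3 CPM in AdKO replicates 1, 2 and 3. AdKO replicate 1 stood above the other 5 libraries, which overlapped. The log2 fold change was 0.27 (standard error 0.227, 95% interval -0.26 to 0.80, adjusted *P* = 0.869 in edgeR's test). Without AdKO replicate 1 it was -0.027, so the direction rests on that library.

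*Adrb1*, the β-adrenergic receptor better known from the heart and also present in fat (ENSMUSG00000035283.4, plus strand of chromosome 19 from 56796862 to 56799352), is a gene of a single exon with 1 row. Its level was 13.6, 12.97 and 17.1 CPM in AdWT and 16.8, 15.0 and 14.1 CPM in AdKO. The groups overlapped throughout. The log2 fold change was 0.073 (standard error 0.148, 95% interval -0.27 to 0.42, adjusted *P* = 0.931 in edgeR's test), and it was -0.0091 without AdWT replicate 2. Per kb of transcript, *Adrb3* stood above *Adrb1* in each library, by 2.58, 2.43 and 1.55 times in AdWT and 3.05, 2.20 and 1.98 times in AdKO. This ratio, which no scaling enters, overlapped between the groups (difference of log2 ratios 0.15, exact permutation test, 2-sided, *P* = 0.7).

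*Adra2a*, which encodes the α2A-adrenergic receptor (ENSMUSG00000033717.5, plus strand of chromosome 19 from 54119672 to 54123472), had 2, 2 and 2 counts in AdWT and 0, 0 and 1 in AdKO. Every value was at or under the 3 counts that a count of 0 allows by counting error only. The gene therefore did not enter the test, and no fold is given. Scaled by library totals alone, without the TMM factors, those 3 counts equal 0.168 to 0.207 CPM. *Adra1d*, another α-adrenergic receptor, had 30.4, 41.6 and 35.4 CPM in AdWT and 41.7, 23.6 and 34.3 CPM in AdKO, so an α-adrenergic receptor was counted in each library.

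*Npr1*, which encodes the guanylyl cyclase receptor for atrial natriuretic peptide (ENSMUSG00000027931.6, minus strand of chromosome 3 from 90254513 to 90269788), had 255.1, 205.2 and 205.5 CPM in AdWT and 266.7, 258.6 and 223.1 CPM in AdKO. AdWT replicate 1 lay among the libraries labelled AdKO, and the groups overlapped. The log2 fold change was 0.17 (standard error 0.112, 95% interval -0.094 to 0.43, adjusted *P* = 0.853 in edgeR's test). It kept its sign in each of 15 refits under another setting, and with a library left out it lay between 0.11 without AdWT replicate 3 (unadjusted *P* = 0.406) and 0.28 without AdWT replicate 1 (unadjusted *P* = 0.024). Without AdWT replicate 2 it was also 0.11. The noncoding gene *Gm16048* overlaps *Npr1* on the other strand. The kit keeps strand, but the strand setting of the counting was not given in the sources used here, so reads of these genes may not be told apart.

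**Figure D1:**
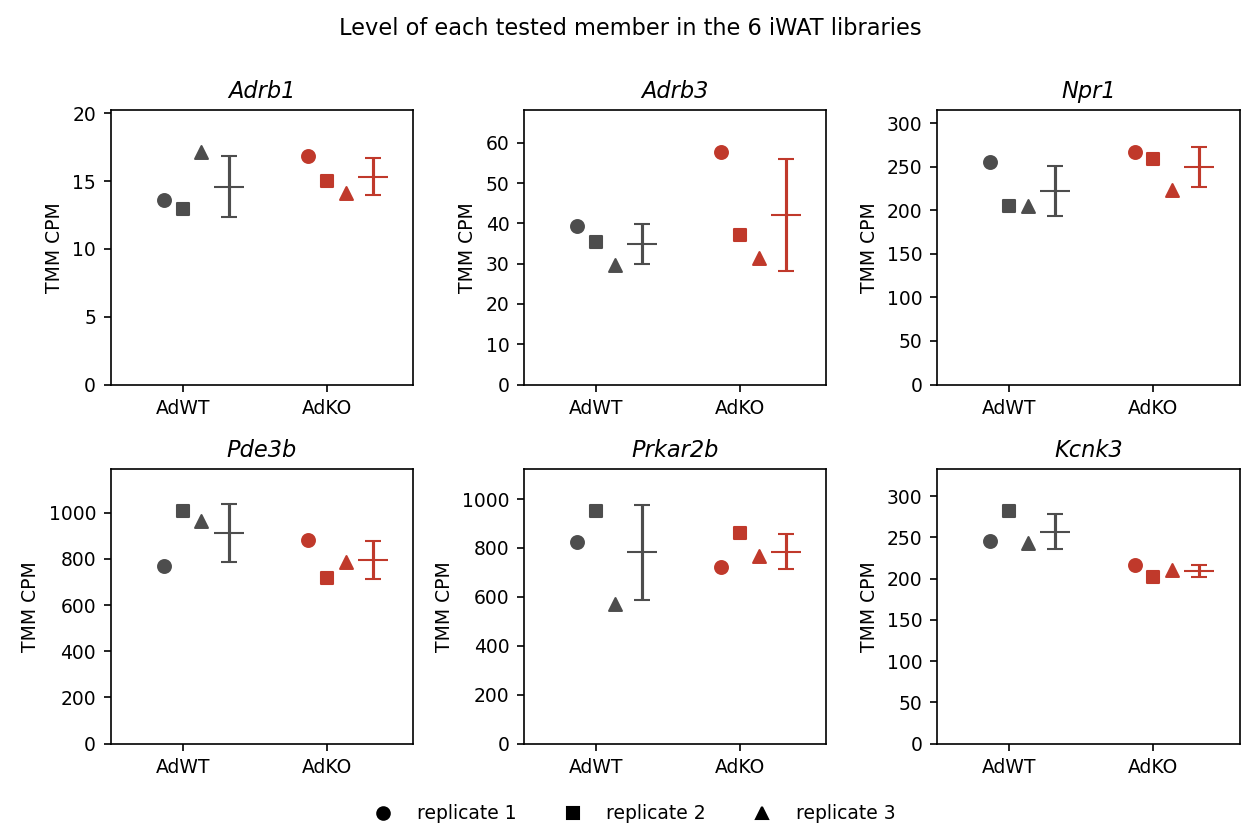
Level of the 6 tested members in TMM CPM (vertical axes from 0) in the 3 AdWT (grey) and 3 AdKO (red) libraries. Symbols mark replicate numbers, and bars the mean with its SD. *Kcnk3* is the panel without overlap, with AdKO at 201.6 to 216.8 CPM and AdWT at 243.8 CPM or above.

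*Pde3b*, on the plus strand of chromosome 7 from 121558795 to 121682765 (ENSMUSG00000030671.8), is the cAMP phosphodiesterase on which insulin acts in fat. It had 769.3, 1006 and 962.9 CPM in AdWT and 882.4, 715.3 and 787.5 CPM in AdKO. AdWT replicates 2 and 3 were highest, while AdWT replicate 1 lay within the range of AdKO. On the log2 scale the fold change was -0.20 (standard error 0.126, 95% interval -0.49 to 0.096, adjusted *P* = 0.853 in edgeR's test). Without AdWT replicate 1 it was -0.31 (unadjusted *P* = 0.024), and without AdWT replicate 2 it was -0.13 (unadjusted *P* = 0.390).

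*Prkar2b* encodes RIIβ, the PKA regulatory subunit that is most abundant in fat and brain, and lies on the minus strand of chromosome 12 from 32643341 to 32746161 (ENSMUSG00000002997.9). It had 823.5, 950.0 and 571.3 CPM in AdWT and 721.1, 862.8 and 768.4 CPM in AdKO. The 3 libraries labelled AdKO fell inside the range of those labelled AdWT, which held both the lowest and the highest value. The log2 fold change was 0.0046 (standard error 0.179, 95% interval -0.41 to 0.42, adjusted *P* = 0.997 in edgeR's test). The interval leaves room for a change of 0.41 in either direction.

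For *Kcnk3* the level was 245.4, 281.7 and 243.8 CPM in AdWT replicates 1, 2 and 3 and 216.8, 201.6 and 210.4 CPM in AdKO replicates 1, 2 and 3. All 3 libraries labelled AdKO lay below all 3 labelled AdWT, and the highest value was in AdWT replicate 2. The mean was 257.0 ± 21.4 CPM (SD, n = 3) in AdWT and 209.6 ± 7.59 CPM (SD, n = 3) in AdKO. On the log2 scale the fold change was -0.29 (standard error 0.079, 95% interval -0.48 to -0.11), a fold of 0.815. Its unadjusted *P* was 0.0067 and its adjusted *P* 0.847 by edgeR, adjusted over all 9872 rows by the Benjamini-Hochberg method. An exact permutation test of log2 CPM (2-sided, 3 against 3) gave *P* = 0.1, the smallest it can give. Over all rows tested, the groups did not overlap in 11.9%, and in 5.72% AdKO was the lower group.

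Adipocyte markers were set beside *Kcnk3*. The 7 adipocyte markers with a row summed to between 46218 and 54690 CPM in AdWT and between 41405 and 42076 CPM in AdKO, without overlap. Taken singly, 6 of the 7 were lower and 1 higher, *Fabp4* and *Lep* were the 2 without overlap, and only *Lep* had an unadjusted *P* under 0.05 in edgeR's test (0.022). Their part in the difference of *Kcnk3* was not tested. In a bulk sample, fewer adipocytes and less RNA per adipocyte cannot be told apart. When the libraries were scaled by the counts of these markers in place of TMM, the log2 fold change of *Kcnk3* was -0.027 (unadjusted *P* = 0.797 in edgeR's test). *Fabp4*, *Lep* and *Adipoq* made up 99.7% of those counts, and this scaling moved the median log2 fold change of all rows to 0.28. Relative to that median the difference of *Kcnk3* was -0.30, as with TMM. A change of scaling shifts all rows by nearly the same amount, so this value could hardly move and is no separate check.

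Of 14 skeletal muscle markers 11 had a row. They summed to 37.5, 191.0 and 18.9 CPM in AdWT replicates 1, 2 and 3 and to between 4.81 and 6.19 CPM in AdKO, with *Tnnt3* and *Myh4* at 0 in every library. All 6 that were tested were lower in AdKO with an unadjusted *P* under 0.05 in edgeR's test, 5 of them without overlap. Their median was -4.2 on the log2 scale. AdWT replicate 2 was highest both in these markers and in *Kcnk3*, and the other AdWT libraries also lay above AdKO in the markers, whose part in the difference was not tested. With AdWT replicate 2 left out, *Kcnk3* had a log2 fold change of -0.23 (unadjusted *P* = 0.020, adjusted *P* = 0.998 in edgeR's test). The 7 smooth muscle and pericyte markers with a row, cells in which *Kcnk3* is also known to be used, summed to between 100.7 and 166.3 CPM in AdWT and between 161.9 and 200.8 CPM in AdKO. These sums overlapped, *Tagln* held most of each, and their part in the difference was not tested. Brown and beige adipocyte markers, with 8 of 9 genes in the table and *Ppargc1a* and *Otop1* at 0, summed to between 79.2 and 88.3 CPM in AdWT and between 101.4 and 115.5 CPM in AdKO. *Cox8b* and *Cidea* held most of each sum, and the groups overlapped in *Cidea* but not in *Cox8b*. Of the 6 tested, 5 were higher and 1 lower (median 0.50 on the log2 scale), and *Cox8b* and *Ucp1* were the 2 with an unadjusted *P* under 0.05 in edgeR's test. *Cox8b* was the 1 without overlap, with 50.3, 39.8 and 33.3 CPM in AdWT and 55.8, 72.5 and 59.0 CPM in AdKO. The log2 fold change of *Cox8b* was 0.60. It was 0.84 for *Elovl3* (standard error 0.379), 0.40 for *Prdm16* (0.513), 0.13 for *Cidea* (0.236) and -0.56 for *Dio2* (0.357), all with overlap. *Elovl3*, *Prdm16* and *Dio2* were low, with between 7 and 44 counts per library. The part of these markers in the difference was not tested.

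The 5 genes whose profile over the 6 libraries was most like that of *Kcnk3* were *1600014C10Rik*, *AU022252*, *B3galtl*, *Sec24d* and *Arfgef2*, among 8710 symbols tested. Their mean absolute difference from the profile of *Kcnk3*, after each gene's own mean log2 CPM was taken off, lay between 0.032 and 0.043. *Arfgef2*, at a level close to that of *Kcnk3*, had 244.6, 268.2 and 231.2 CPM in AdWT and 210.8, 208.5 and 214.6 CPM in AdKO. Since *Kcnk3* separated the groups, these 5 do so by the same choice.

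Per kb of the longest coding transcript, *Prkar2b* had the highest level of the members, followed by *Pde3b*, *Kcnk3*, *Npr1*, *Adrb3* and *Adrb1*. *Prkar2b* ranged from 169.1 to 281.2 CPM per kb over the 6 libraries and *Pde3b* from 108.8 to 153.0, so these neighbours did not overlap. *Kcnk3* ranged from 52.9 to 73.9 and *Npr1* from 50.5 to 65.6 CPM per kb, and these neighbours did not differ beyond their spread. *Adrb3*, from 10.6 to 20.6, and *Adrb1*, from 5.21 to 6.88 CPM per kb, lay below and apart from each other. The order of the medians over the 6 libraries was the same per kb of all annotated exons. Within AdKO the order of *Kcnk3* and *Npr1* turned with the length used, with means of 55.0 and 61.4 CPM per kb of the longest coding transcript and of 55.0 and 52.2 CPM per kb of all exons.

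**Figure D2:**
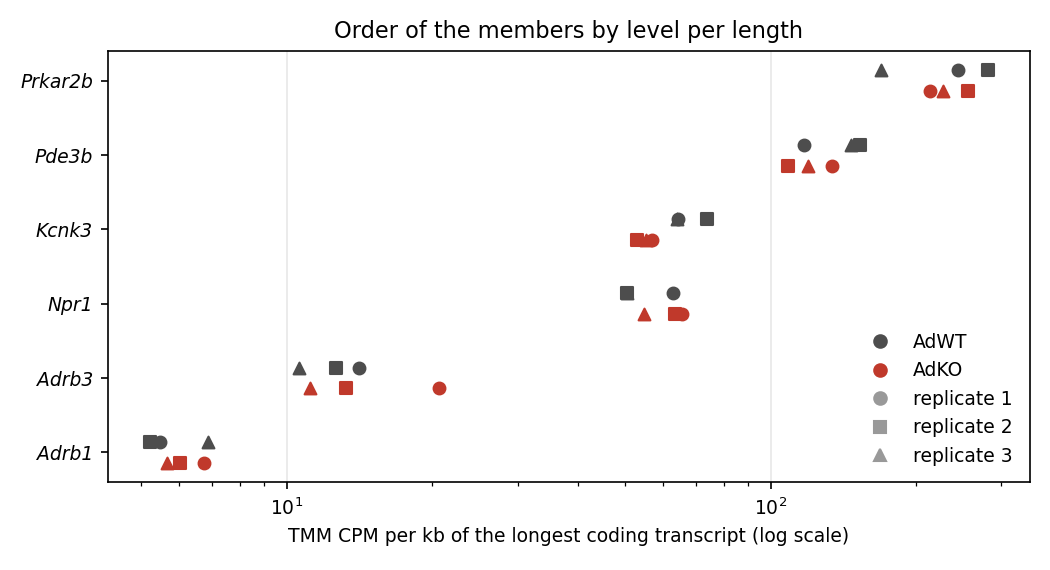
TMM CPM per kb of the longest coding transcript (log scale) for each tested member, with 1 point per library, AdWT in grey and AdKO in red. *Kcnk3* (52.9 to 73.9) and *Npr1* (50.5 to 65.6 CPM per kb) are the neighbours whose points overlap.

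In AdWT the level of *Kcnk3* per kb was 1.03, 1.47 and 1.27 times that of *Npr1*, and in AdKO it was 0.867, 0.832 and 1.01 times. The ratio does not depend on scaling, and all 3 values in AdKO lay below those in AdWT, the closest being 1.01 and 1.03. The difference of log2 ratios was -0.46 (exact permutation test, 2-sided, *P* = 0.1, the smallest possible, and 0.467 after Benjamini-Hochberg adjustment over the 7 pairs computed). This pair was singled out after the values were seen. Set against *Pde3b*, *Kcnk3* gave a difference of -0.097 in log2 ratio, with overlapping groups (exact permutation *P* = 0.5).

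Other genes of the pathway were taken from lists of 110 genes, of which 87 had a row and 50 could be tested. In AdKO 24 of the 50 were higher and 26 lower around a median of -0.0078 in log2 fold change, and none had an adjusted *P* under 0.05 in edgeR's test or in DESeq2. An unadjusted *P* under 0.05 was reached by 2 that were higher and 4 that were lower, beside 2.76% and 2.98% of all rows tested. These 6 are *Ucp1*, *Atf1*, *Gnai1*, *Pkia*, *Grk5* and *Aqp7*. The groups did not overlap in 6 of the 50, with 4 lower and 2 higher in AdKO, beside 11.9% of all rows tested.

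Among G proteins and adenylyl cyclases, 3 of 7 tested were higher and 4 lower. *Gnai1*, an inhibitory G protein subunit, had 491.1, 581.5 and 551.6 CPM in AdWT and 495.8, 424.1 and 459.2 CPM in AdKO (log2 fold change -0.24, standard error 0.093). AdWT replicate 1 lay just below AdKO replicate 1. *Adcy5*, an adenylyl cyclase, measured 797.0 ± 37.9 CPM (SD, n = 3) in AdWT and 720.3 ± 106.6 CPM (SD, n = 3) in AdKO. *Gnb2*, a Gβ subunit, had a log2 fold change of 0.065 and was higher in AdKO without overlap.
Of 7 other PKA subunits and partners, 1 was higher and 6 lower. *Pkia*, an inhibitor of the catalytic subunit, had 98.5, 112.7 and 109.4 CPM in AdWT and 94.5, 73.8 and 90.8 CPM in AdKO, without overlap (log2 fold change -0.31, standard error 0.108). *Akap13*, an anchoring protein, and *Prkar2a*, the RIIα subunit, had log2 fold changes of 0.048 and -0.13. Of 7 other phosphodiesterases 5 were higher and 2 lower, among them *Pde8a* with -0.13 and *Pde5a*, which breaks down cGMP, with 0.22.
In receptor desensitisation, *Grk5*, a receptor kinase, had 25.98, 24.1 and 26.8 CPM in AdWT and 22.1, 22.0 and 21.3 CPM in AdKO, also without overlap (log2 fold change -0.23, standard error 0.092). *Rgs2* and *Rgs4*, which shorten G protein signals, had log2 fold changes of 0.17 and 0.088. Among other tandem pore potassium channels, *Kcnk5* had a log2 fold change of -0.35 (standard error 0.194) and *Kcnk6* of 0.20 (standard error 0.294). Of the 3 channels tested 1 was higher and 2 lower. Their group means lay between 2.26 and 5.74 CPM, against 209.6 CPM or more for *Kcnk3*. These levels are not per length, and reads of channels with more than 1 row may be split between rows.

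Of 9 genes of PKA-responsive transcription 4 were higher and 5 lower. *Atf1*, a relative of CREB, had 55.2, 54.5 and 54.0 CPM in AdWT and 60.2, 61.3 and 60.3 CPM in AdKO, without overlap (log2 fold change 0.15, standard error 0.064). *Ucp1*, the uncoupling protein of thermogenic fat, had 1.64, 0.478 and 0.468 CPM in AdWT and 1.44, 3.82 and 4.03 CPM in AdKO, with overlap (log2 fold change 1.85, standard error 0.574). The coactivators *Ep300* and *Crebbp* had log2 fold changes of 0.019 and -0.0027.
Among lipolysis genes 2 of 4 tested were higher and 2 lower. *Aqp7*, the channel by which glycerol leaves the adipocyte, had 112.4, 122.6 and 107.4 CPM in AdWT and 104.7, 97.8 and 88.1 CPM in AdKO, without overlap (log2 fold change -0.24, standard error 0.089). *G0s2*, an inhibitor of adipose triglyceride lipase, had a log2 fold change of 0.19 and *Lipe*, hormone-sensitive lipase, of -0.15. The 4 tested genes of catecholamine clearance were all higher, between 0.034 and 0.13, with *Slc22a3* at 0.034 and *Maob* at 0.054. Of the receptors and cGMP genes, *Npr2* had a log2 fold change of -0.058, *Gucy1a3* of 0.21, *Adra1d* of -0.11 and *Adra2c* of 0.18.

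**Figure D3:**
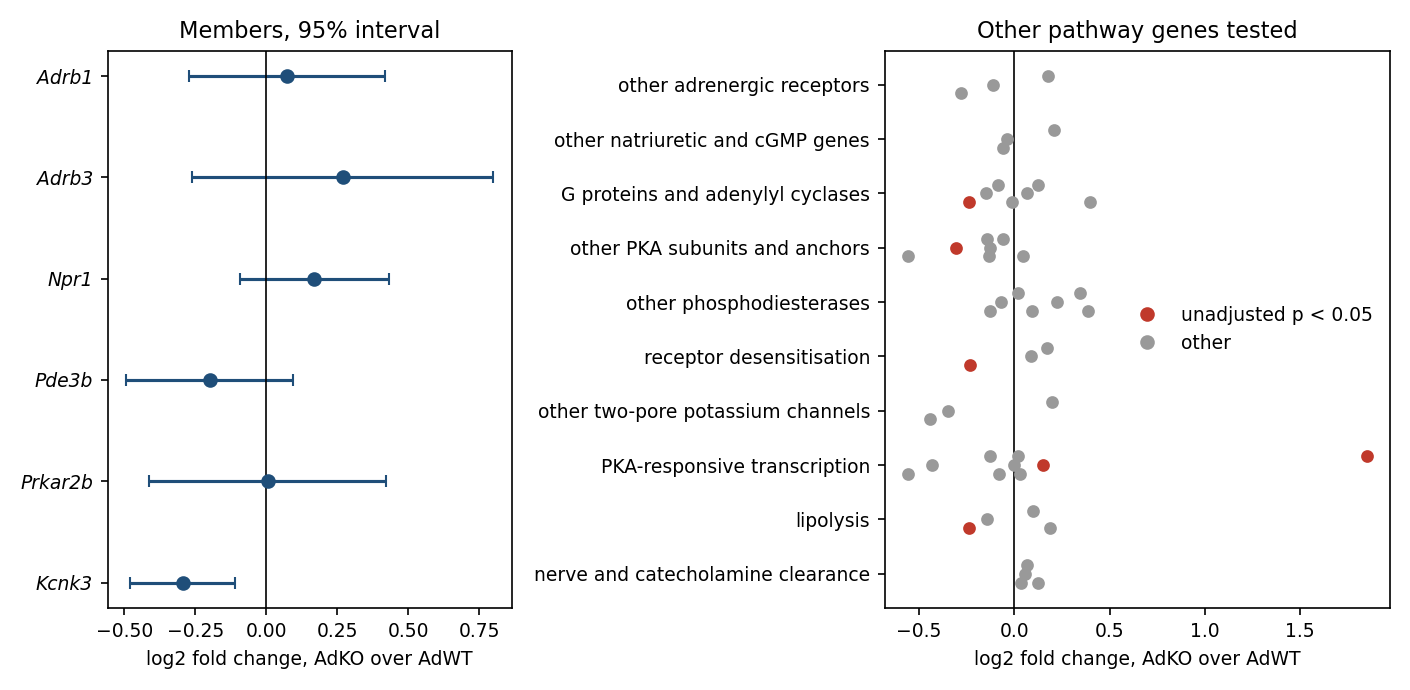
Left, log2 fold change of each member, AdKO over AdWT, with its 95% interval, and right, the 50 other pathway genes tested, 1 point each, in rows by list, red where the unadjusted *P* was under 0.05. The interval of *Kcnk3* (-0.48 to -0.11) is the one among the members that leaves out 0, and *Ucp1* is the point at 1.85.

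A count of 0 in this table is not a sign that a gene was silent. Of the 37 pathway genes with a row that were not tested, 15 were at 0 in every library, including *Gnas* (2 rows), *Creb1* (4 rows) and *Pnpla2* (4 rows), which encode the stimulatory G protein, CREB and adipose triglyceride lipase. *Adrb1*, *Npr1*, *Pde3b*, *Prkar2b* and *Kcnk3* have 1 row each. *Th*, *Slc6a2* and *Slc18a2*, genes of sympathetic nerve cells whose bodies lie outside the depot, were at 0 as well.

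**Figure D4:**
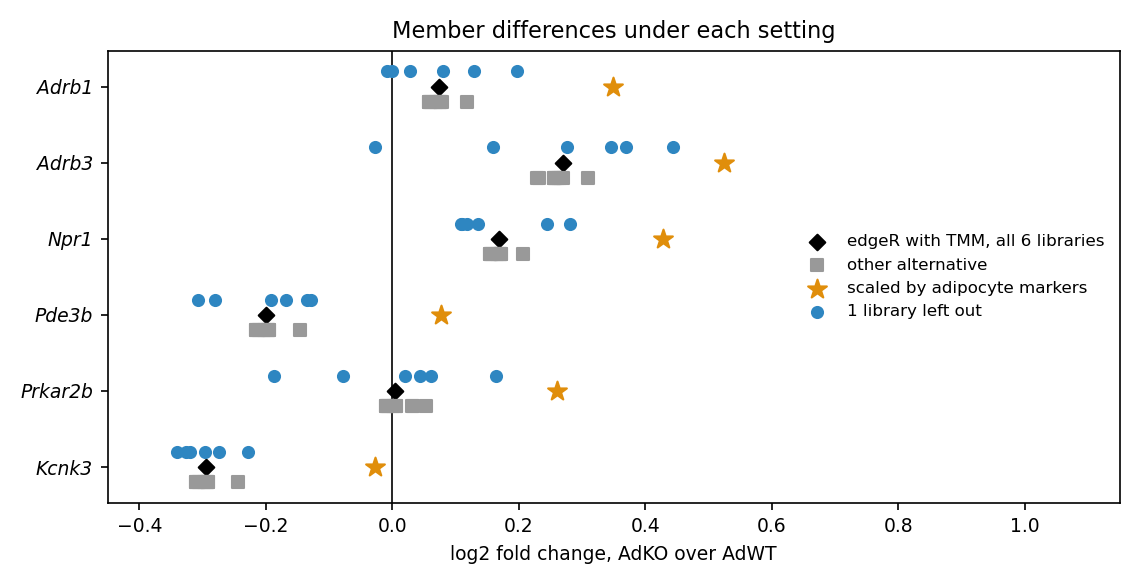
Log2 fold change of each member, AdKO over AdWT, from the edgeR test with TMM (black), with 1 library left out (blue), with scaling by adipocyte markers (star) and under the other alternatives (grey). *Kcnk3* stays between -0.34 and -0.23 with 1 library left out and is at -0.027 with scaling by adipocyte markers, which moves every member to the right.

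The settings moved the members in different ways. *Kcnk3* and *Npr1* had the same direction in all 15 refits under another setting. *Prkar2b* changed direction under 5 of 15, and *Adrb1* and *Adrb3* under 1 each. *Pde3b* changed sign under 1, the scaling by adipocyte markers, and relative to the median of all rows it was at -0.20 there and at -0.21 with TMM. Scaling by adipocyte markers gave 2 members with an unadjusted *P* under 0.05, *Npr1* with a log2 fold change of 0.43 and *Adrb1* with 0.35, while 2713 rows passed that level. Relative to the median of all rows, these differences were 0.15 and 0.073. Values relative to the median hardly depend on the scaling, because it shifts all rows nearly alike. None of the members had an adjusted *P* under 0.05 under any alternative.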

How the data were processed

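RNA-Seq of iWAT was performed on 3 biological replicates per group. HISAT2 and the mm9 genome were used by the authors for alignment, and the deposited values are raw counts per row, without normalization. The counting tool was not given in the sources used here, and DESeq2 is named in the submitters' processing notes. The table has 37024 rows, 17470 of them at 0 in every library, and 0 columns of no sample. *P* values rest on the spread between these 3 and 3 animals.

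Counts were filtered with filterByExpr, TMM scaled and compared with glmQLFit and glmQLFTest of edgeR 4.0.16 in R 4.3.3, with Benjamini-Hochberg adjustment over all rows and a threshold of 0.05. Standard errors were taken as the size of the log2 fold change over the root of the F statistic. The common biological coefficient of variation was 0.196. Exact permutation tests (scipy 1.17.1) used log2 CPM with 0.5 added, and the smallest *P* for 3 against 3 is 0.1. A symbol with more than 1 row was read from its row of highest total. Positions, lengths and windows of 250 bases came from GENCODE M1 on NCBIM37, the build the labels name as mm9.

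The members and lists were chosen with earlier results of these data known. Named genes are the members, pathway genes with an unadjusted *P* under 0.05, up to 2 others per list with the highest counts, and the 5 symbols most like the member with the smallest *P*. *Gnas*, *Creb1*, *Pnpla2*, *Th*, *Slc6a2*, *Slc18a2* and the marker genes given by name were named after their counts were seen. *4930412L05Rik* was named as the targeted gene and *Gm16048* for its overlap with a member. Alternatives were 15 refits, with DESeq2 1.42.0, RLE, upper quartile and library size scaling, 2 other filters, summing the rows of each symbol, the replicate number as a block, scaling by adipocyte markers, and each library left out in turn. Replicate numbers are shared by the groups in the labels and were not taken as a pairing. The 6 mammary epithelium markers with a row summed to 20.3 CPM in AdWT replicate 3 and 48.0 CPM in AdKO replicate 3. In the other libraries they summed to between 0.894 and 1.44 CPM. Their part in the differences of the members was not tested.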

Additional observations from a re-analysis of the deposited data

How the results depend on the processing

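Each of the 6 tested members had at least 208 counts in every library, while *Adra2a*, with 7 counts in all, was below what this depth can compare. Rows with an adjusted *P* under 0.05 numbered 0 with edgeR, 17 with DESeq2, 27 with its filter tuned to 0.05 (an alternative chosen after seeing the data), 1 with at least 1 count in any library, and 0 to 1 with each library left out, the 1 without AdKO replicate 3. Rows with an unadjusted *P* under 0.05 numbered 566, against 2713 with scaling by adipocyte markers and between 329 (without AdWT replicate 2) and 1208 (without AdWT replicate 1) with each library left out. Members at that level numbered 1, against 2 with scaling by adipocyte markers and 1 to 3 with each library left out, the 3 without AdWT replicate 1 being *Kcnk3*, *Npr1* and *Pde3b*. For *Kcnk3* the unadjusted *P* lay between 0.0040 and 0.797 and the adjusted *P* between 0.391 and 0.998 over its alternatives.

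With each library left out, the log2 fold change lay between -0.0091 and 0.20 for *Adrb1*, between -0.027 and 0.44 for *Adrb3*, between 0.11 and 0.28 for *Npr1*, between -0.31 and -0.13 for *Pde3b* and between -0.19 (without AdWT replicate 3) and 0.16 for *Prkar2b*, which was also negative, at -0.077, without AdKO replicate 2. *Prkar2b* was at -0.0098 with DESeq2 under either filter, -0.0077 with RLE and -0.0063 with upper quartile scaling. *Pde3b* was at 0.077 with scaling by adipocyte markers, which moved the median of all rows to 0.28. Relative to that median *Pde3b* was at -0.20, against -0.21 with TMM, a value that a change of scaling can hardly move. With the replicate block, which left 1 member with an unadjusted *P* under 0.05 and none of the members or pathway genes with an adjusted one, the log2 fold change of *Kcnk3* was -0.29, and 418 rows had an unadjusted *P* under 0.05. Deviations of same-numbered libraries correlated at -0.10, -0.12 and 0.35 across rows, so the numbers were not taken to pair the samples.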
